A study of Arabidopsis thaliana with 4 samples.

Results

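Transcripts of 7 regulators of flowering time were followed in vip3 mutants and wild-type (WT) plants of Arabidopsis thaliana. The regulators were the repressors FLC, SMZ and SNZ and the promoters FD, AGL24, AGL42 and GI, read by 7 of the 22810 probe sets of the Affymetrix ATH1 array. SMZ, SNZ, FD, AGL24, AGL42 and GI were found as the probe sets that carry that single gene symbol in the platform annotation. FLC was taken to be read by the probe set numbered directly before 250477_at, which the annotation leaves unnamed and which is called the FLC probe set below. The nearest named probe sets by number, 250472_at and 250477_at, belong to AT5G10210 and AT5G10190, and 8 of the 9 named probe sets within 10 numbers of it belong to loci between AT5G10120 and AT5G10320, the stretch of chromosome that holds FLC (AT5G10140). The members were selected on earlier results of the same vip3 against WT contrast, so their differences are described here and not tested.

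The vip3 plants were homozygous for vip3-1, a null allele of VERNALIZATION INDEPENDENCE 3, and the comparison plants were WT. The sources used here do not give the accession or background that the lines shared. Both genotypes were grown on soil with no treatment named, and all aerial tissue was harvested at 14 d. The study describes vip mutants as flowering early, so the same age need not be the same developmental stage. Stage was not tested here. Each of the 4 arrays, 2 from vip3 and 2 from WT, carried pooled RNA of 3 separately obtained samples, each made from over 100 plants. Arrays of 1 genotype thus differed as pools do and not as single plants. In whole aerial tissue, fewer cells of a type and less RNA per cell cannot be told apart.

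Flowering in Arabidopsis is set by a balance of repressors and promoters that meet at a few integrator genes. FLC, a MADS-box protein, represses the leaf-made flowering signal FT as well as SOC1 and FD, and is shut off by prolonged cold (vernalization) and by the autonomous pathway. SMZ and SNZ are AP2-like proteins that repress FT and are targets of the microRNA miR172, which accumulates as plants age. On the promoting side, GI links the circadian clock to day length and helps CO to activate FT. FD is the bZIP partner of FT at the shoot apex, and AGL24 and AGL42 are MADS-box proteins that act beside SOC1. VIP3 is a WD-repeat protein of the plant Paf1 complex (Paf1C), which travels with elongating RNA polymerase II and is needed for FLC activity.

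Values are MAS5 signals, linear intensities that the authors' software scales to a common target on every array. The correlation of log2 signals over 22746 probe sets was 0.95 for the vip3 pair, 0.953 for the WT pair and 0.941 to 0.946 across genotypes; probe sets are no replicates. A signal under 20 was found for 16.6% to 20.2% of probe sets on each array, and at that level the relative error is large.

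The repressor FLC was far lower in vip3. The FLC probe set had signals of 1.4 and 18.6 on the vip3 arrays, against 3099.9 and 2989.6 on the WT arrays. The genotypes were far apart, and both vip3 signals lay in the range below 20. As a gauge of background only, since probe sets differ in affinity, 1.9% of probe sets had a lower signal than this one on vip3 replicate 1 and 16.1% on vip3 replicate 2. The means were 10 ± 12.2 in vip3 and 3044.8 ± 78 in WT (SD, n = 2 each), and the log2 difference, vip3 minus WT, was -9.22 ± 0.99 (SE of the fit across all probe sets). The fit pulls this SE toward that of probe sets with a similar mean signal, so it is not the spread of this probe set's own arrays. The vip3 arrays differed from each other 13.3-fold, a wider gap than for 98.8% of probe sets, whereas the WT arrays differed 1.04-fold. The size of the difference therefore rested on signals near background: with log2 of the signal plus 16 it was -6.96, and with signals below 20 set to 20 it was -7.25. On each of these scales it was the lowest log2 difference among the 22746 probe sets, a description of the values it was selected on.

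The AP2-like repressor SMZ was lower in vip3 by a smaller and more even amount. Its signals were 137 and 161.9 on the vip3 arrays, against 331 and 332.2 on the WT arrays. Both vip3 signals lay below both WT signals, and the WT arrays were nearly identical. The mean was 149 ± 17.6 in vip3 and 332 ± 0.849 in WT (SD, n = 2 each), a ratio of 0.451 and a log2 difference of -1.15 ± 0.16 SE. Its close relative SNZ differed much less. SNZ had signals of 357.9 and 323.2 in vip3 and of 457.2 and 360 in WT, with means of 341 ± 24.5 in vip3 and 409 ± 68.7 in WT (SD, n = 2 each). Its genotypes were separated only by the gap between 357.9 in vip3 and 360 in WT, and the log2 difference of -0.25 ± 0.14 SE became -0.08 without WT replicate 1. No value of SNZ thus set it apart from the spread between its arrays, and the difference between the SMZ and SNZ responses was not tested.

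**Figure D1:**
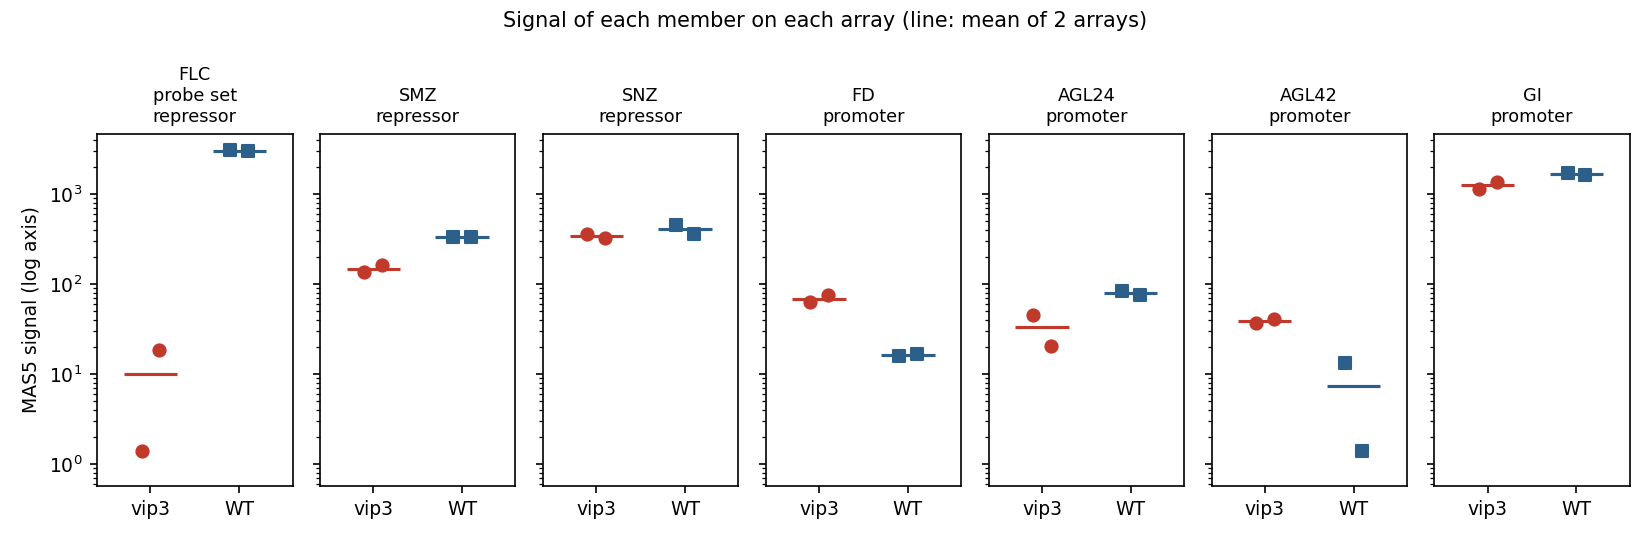
MAS5 signal (log axis) of each member on the 2 vip3 arrays (red circles) and the 2 WT arrays (blue squares), with the mean of each genotype as a line. The FLC probe set is at 1.4 and 18.6 in vip3 and at 3099.9 and 2989.6 in WT, FD and AGL42 are higher in vip3, and the other 4 members are lower in vip3 by smaller amounts.

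Of the promoters, FD and AGL42 were higher in vip3, both from low signals. FD had signals of 62.8 and 75.9 on the vip3 arrays, against 16.1 and 16.7 on the WT arrays. Arrays of 1 genotype were close to each other and the genotypes were well apart. The mean was 69.3 ± 9.26 in vip3 and 16.4 ± 0.424 in WT (SD, n = 2 each), a ratio of 4.23 and a log2 difference of 2.07 ± 0.53 SE. WT signals of FD lay below 20, and the log2 difference was 1.39 with log2 of the signal plus 16. AGL42, whose protein promotes flowering at shoot and axillary meristems with its relatives AGL71 and AGL72, had signals of 37.4 and 40.7 in vip3 and of 13.5 and 1.4 in WT. The vip3 arrays were close together while the WT arrays differed 9.64-fold, a wider gap than for 98.4% of probe sets. Its log2 difference of 3.17 ± 1.15 SE was therefore poorly determined: it was 4.80 without WT replicate 1 and 1.53 without WT replicate 2, and adding 16 to each signal before taking log2 gave 1.28.

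The promoters AGL24 and GI were lower in vip3. AGL24, whose protein activates SOC1 and is itself activated by vernalization without FLC, had signals of 45.8 and 20.4 in vip3 and of 84.2 and 75.4 in WT. The vip3 arrays differed 2.25-fold and lay below both WT arrays. The mean was 33.1 ± 18 in vip3 and 79.8 ± 6.22 in WT (SD, n = 2 each), and the log2 difference of -1.38 ± 0.52 SE became -0.80 without vip3 replicate 2 and -1.97 without vip3 replicate 1. GI had signals of 1152.8 and 1378.9 in vip3 and of 1742.5 and 1647.6 in WT. Its genotypes did not overlap, but the shift was small, with means of 1265.8 ± 160 in vip3 and 1695 ± 67.1 in WT (SD, n = 2 each), a ratio of 0.747 and a log2 difference of -0.43 ± 0.10 SE. The hour of harvest was not examined for this clock-linked gene, and its part in the difference was not tested.

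Array by array, each of the 4 possible vip3 minus WT differences had the same sign for every member. This is the same condition as no overlap between the genotypes, which 52.2% of all probe sets tested also met. For the FLC probe set they were between -11.11 and -7.33 on the log2 scale, for SMZ between -1.28 and -1.03, and for SNZ between -0.50 and -0.01. The repressors thus differed widely in size, and the direction of SNZ was not clear, as its differences reached -0.01. For FD the differences were between 1.91 and 2.24 and for AGL42 between 1.47 and 4.86, whereas for AGL24 they were between -2.05 and -0.72 and for GI between -0.60 and -0.26. The promoters thus did not share a direction. The median log2 difference was -1.15 over the 3 repressors and 0.82 over the 4 promoters, beside 0.00 over all probe sets tested.

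**Figure D2:**
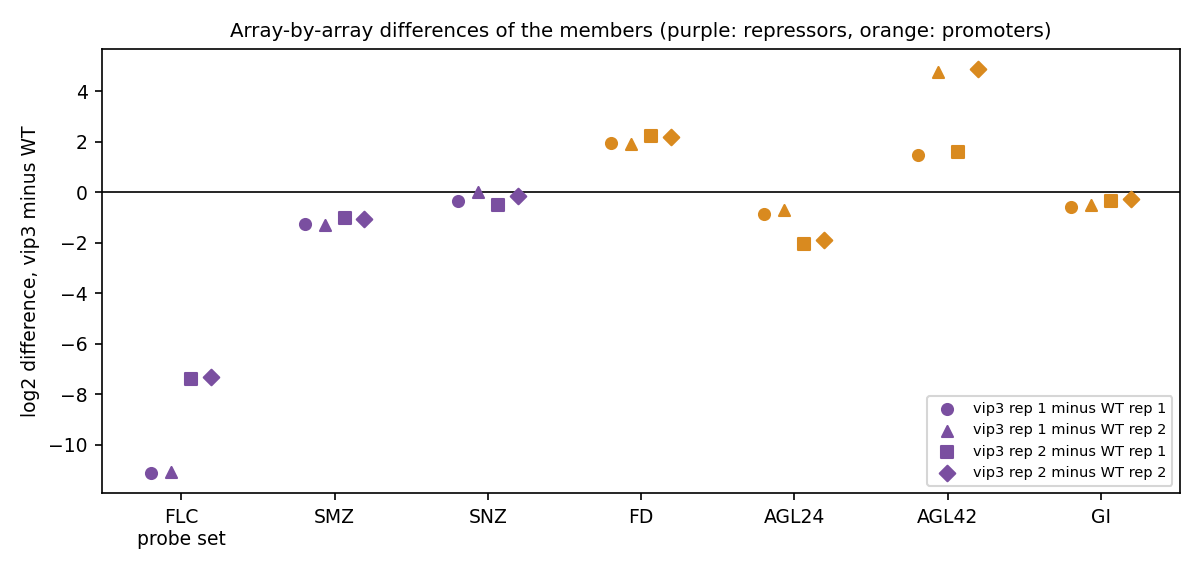
Log2 difference of each vip3 array minus each WT array, 4 points per member, for repressors (purple) and promoters (orange). The points of the FLC probe set lie between -11.11 and -7.33, those of FD between 1.91 and 2.24, and those of SNZ reach up to -0.01.

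Repressors and promoters were also set against each other within each array. Each member's log2 signal was expressed relative to its own mean over the 4 arrays, so that no probe set's level entered. The repressors then averaged -2.41 and -1.13 on the vip3 arrays and 1.84 and 1.71 on the WT arrays. The promoters averaged 0.49 and 0.36 on the vip3 arrays, against 0.00 and -0.86 on the WT arrays. This mean covers members that differed in opposite directions, and without AGL42, left out after its values were seen, it was 0.15 and -0.06 on the vip3 arrays, against -0.01 and -0.08 on the WT arrays. The difference of the promoter means, 0.86 with all 4 promoters, was 0.09 without AGL42, 0.43 without WT replicate 2, 1.29 without WT replicate 1 and 0.24 with signals below 20 set to 20. Repressors minus promoters gave -2.90 and -1.5 in vip3 and 1.83 and 2.57 in WT, a difference of -4.40. Most of this came from FLC, and on the promoters' side from AGL42. Without the FLC probe set the same measure was -0.87 and -0.69 in vip3 and 0.43 and 1.13 in WT, a difference of -1.56, and without AGL42 as well the difference was -0.79. With signals below 20 set to 20, the difference was -3.12 with and -0.94 without the FLC probe set. These values describe the chosen members and carry no test.

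All 7 members had vip3 arrays that did not overlap the WT arrays, 5 of them lower and 2 higher in vip3, beside 52.2% of all probe sets tested. In limma, 3 of the 7 (FLC, SMZ and GI) had an adjusted p under 0.05, beside 9.8% of all probe sets (4.73% higher and 5.07% lower in vip3). Both counts come from the contrast on which the members were selected, and nothing is read from them. The number of members with an adjusted p under 0.05 was 0 when the prior variance was held constant, a setting that called 0 probe sets on the whole array. With signals below 20 set to 20 it was 1, beside 36 of the 22746 probe sets tested. With quantile normalization it was 2 (FLC and SMZ), beside 2122 probe sets. FD took the place of FLC with robust eBayes (2280 probe sets called), and of GI when 16 was added to each signal (1747 called). Without the probe sets that share probes between genes, 4 members were called, FD added, beside 2146 probe sets. FD, AGL24 and AGL42 were among the 40% dimmest probe sets by mean log2 signal over all arrays, so that 4 of the 7 passed a filter on low signals. The FLC probe set passed it only through its WT signals, as both of its vip3 signals lay below 20.

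**Figure D3:**
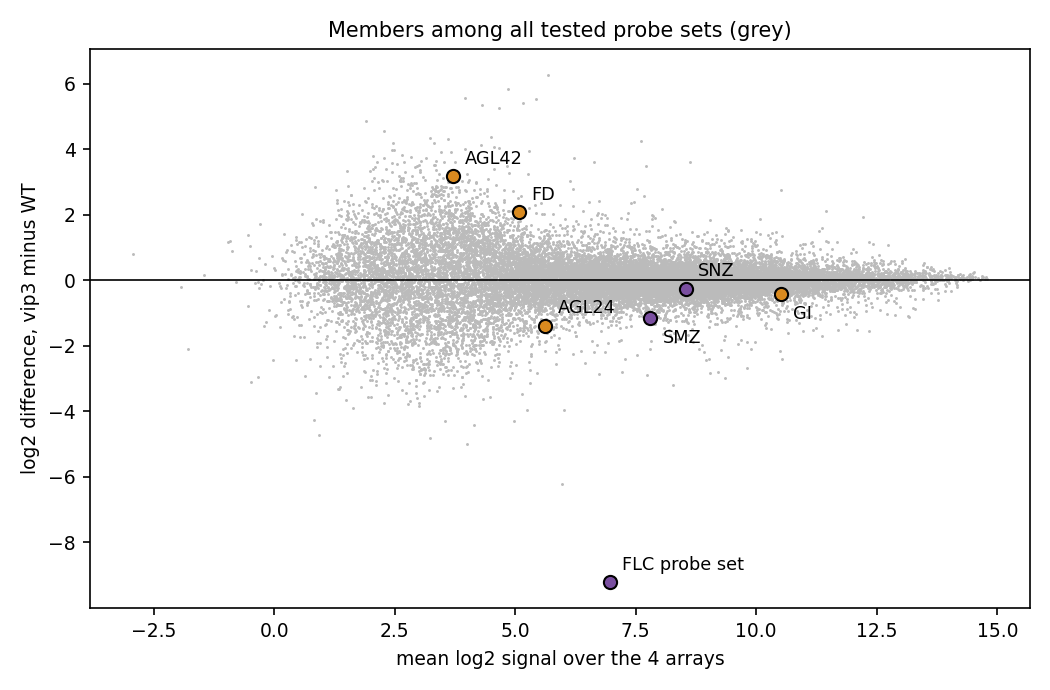
Log2 difference, vip3 minus WT, against mean log2 signal over the 4 arrays for all 22746 probe sets tested (grey), with the repressors (purple) and promoters (orange) marked. The FLC probe set lies at -9.22, below every other probe set, while AGL42 and AGL24 lie where grey points spread widely.

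Other genes of the flowering pathways were taken from a list of 113 genes that left out the members. Of these, 13 had a probe set named for them alone, and 2 of the 13 could be given only by locus. None passed over all probe sets in limma in either direction, beside 9.8% of all probe sets, and 4 had an unadjusted p under 0.05 (30.8%, beside 23.7% of all). With a constant prior variance these counts were 0 and 3 (23.1%, beside 16.7% of all at an unadjusted p under 0.05). In 7 of the 13 the genotypes did not overlap (53.8%, beside 52.2% of all). Their median log2 difference was -0.05, beside 0.00 over all probe sets. The FT-like signals, SOC1, the FLC clade apart from the 1 gene below, CO, the clock genes and Paf1C had no probe set named for them alone and were not assigned here, VIP3 included, so that the mutated gene gave no check of the labels.

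In the gibberellin branch, which promotes flowering where day length does not, 4 of 12 listed genes were measured. The gibberellin receptor gene GID1B had signals of 150.5 and 157.4 in vip3 and of 91.1 and 94.3 in WT, a log2 difference of 0.73 ± 0.23 SE (limma adjusted p = 0.097). A second receptor gene, GID1C, had signals of 183.4 and 167.5 in vip3 and of 121.6 and 120.3 in WT (0.54 ± 0.20, adjusted p = 0.16). Both were higher on each vip3 array than on each WT array without passing. The third receptor gene, GID1A, overlapped, with means of 615 ± 54 in vip3 and 651 ± 34.8 in WT (SD, n = 2 each; limma adjusted p = 0.69). SPY, an O-fucosyltransferase that restrains gibberellin signalling, had means of 468 ± 29.5 in vip3 and 426 ± 18.2 in WT (limma adjusted p = 0.51). GID1B alone had an adjusted p under 0.05 when the 40% dimmest probe sets were left out (0.038).

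In the autonomous pathway, which keeps FLC low, 2 of 8 listed genes were measured. LD, a homeodomain protein, had signals of 284.5 and 218.9 in vip3 and of 363.4 and 315.9 in WT (log2 difference -0.44 ± 0.16 SE, limma adjusted p = 0.15). FY, a polyadenylation factor, had means of 270 ± 10.2 in vip3 and 279 ± 6.93 in WT (adjusted p = 0.88). Neither passed. AGL18, a MADS-box repressor and the 1 measured gene among 8 relatives and partners of FLC, had means of 66.2 ± 27.4 in vip3 and 96.2 ± 17.3 in WT and overlapped (adjusted p = 0.44).

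Of the relatives and partners of the promoters, 3 of 15 listed integrator genes were measured, all dim. AGL72, which acts with AGL42, had signals of 22.9 and 5.4 in vip3 and of 5.1 and 1.9 in WT (log2 difference 1.84 ± 1.16 SE, limma adjusted p = 0.41). Its difference was 0.57 with log2 of the signal plus 16 and 0.10 with signals below 20 set to 20, and 0.79 without vip3 replicate 1, 2.88 without vip3 replicate 2 and 1.12 without WT replicate 2. AGL71 had signals of 5.1 or less on all 4 arrays. AGL19, which promotes flowering after vernalization, had means of 29.6 ± 4.1 in vip3 and 27 ± 5.44 in WT (adjusted p = 0.93). The floral meristem gene UFO had signals of 7.5 or less on all arrays. The 2 genes known here by locus came from other lists. AT2G30120, the 1 measured gene of 13 listed FLC activators, had signals of 82.8 and 68.3 in vip3 and of 136.1 and 116.5 in WT. AT1G69570, the 1 measured gene of 4 listed repressors of CO, had signals of 140 and 121 in vip3 and of 97 and 115.4 in WT. Their log2 differences were -0.74 ± 0.28 SE and 0.30 ± 0.25 SE (limma adjusted p = 0.16 and 0.54), and neither passed.

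**Figure D4:**
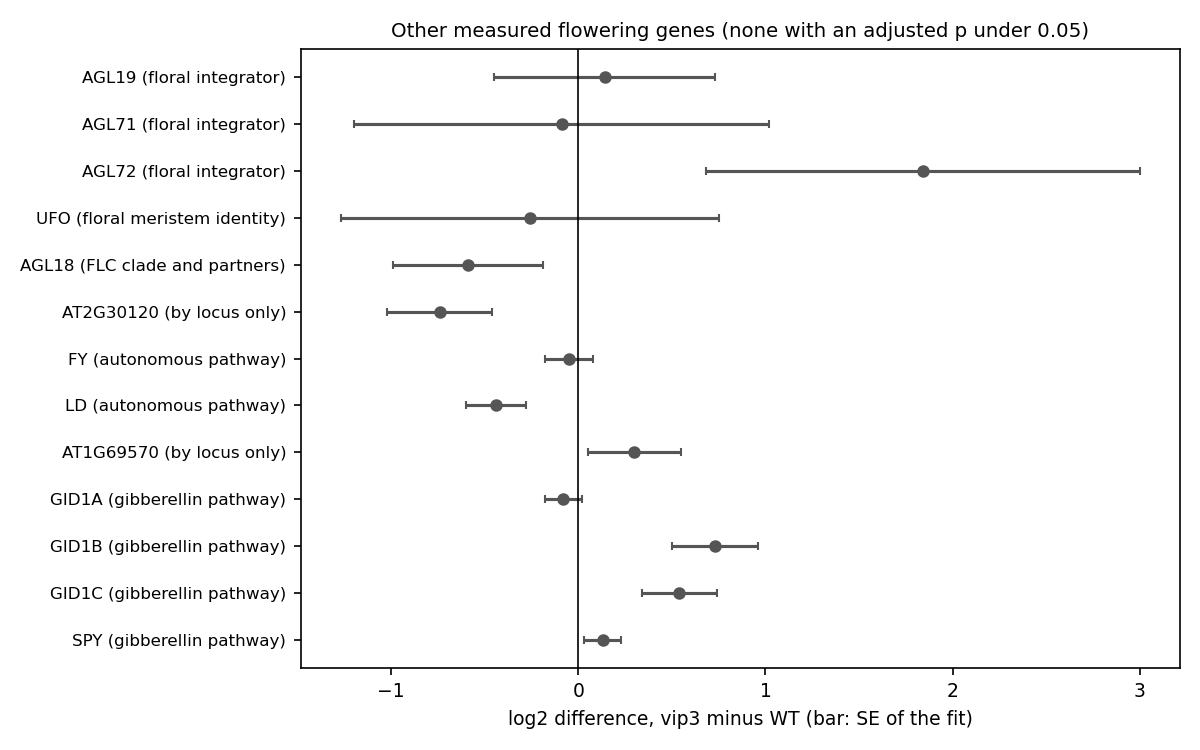
Log2 difference, vip3 minus WT, with its SE, for the 13 other measured flowering genes, in the order of the lists they came from. None had an adjusted p under 0.05; AGL72 is drawn at 1.84 ± 1.16, a value that was 0.10 with signals below 20 set to 20, and GID1B and GID1C lie at 0.73 and 0.54.

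The genes on either side of each member were examined to see whether the differences extended along the chromosome. Up to 5 protein-coding genes on each side were taken from the gene order of a RefSeq table, which gave 70 neighbours, of which 40 had a named probe set. In limma 1 of the 40 passed, beside 9.8% of all probe sets, and in 26 the genotypes did not overlap (65%, beside 52.2% of all). Beside FLC, 4 of 10 neighbours were measured. The adjacent gene AT5G10130 had signals of 4 and 4.9 in vip3 and of 7.6 and 6.7 in WT (log2 difference -0.69 ± 0.97 SE, limma adjusted p = 0.75). Both genotypes were near the bottom of the array there. AT5G10160, which lies 2 genes away on the other side, had signals of 1216.1 and 1385.2 in vip3 and of 1576.6 and 1674.4 in WT (-0.32 ± 0.09, adjusted p = 0.058). It was lower on both vip3 arrays and did not pass. AT5G10120, 2 genes away on the side of AT5G10130, had a log2 difference of 1.54 ± 1.39 SE (adjusted p = 0.58). AT5G10190, 5 genes away, had means of 216 ± 49.4 in vip3 and 238 ± 19 in WT and overlapped.

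None of the 5 measured neighbours of SMZ, the 6 of SNZ, the 5 of FD, the 4 of AGL24 or the 7 of GI passed. Among adjacent genes, some were lower in vip3 like the member beside them without passing. AT2G39240 and AT2G39260, on either side of SNZ, had log2 differences of -1.23 ± 0.73 SE and -0.49 ± 0.16 SE (limma adjusted p = 0.37 and 0.11), and neither overlapped between genotypes. Beside AGL24, AT4G24530 did not overlap either (-0.48 ± 0.15, adjusted p = 0.093), whereas AT4G24550 on the other side did (-0.08 ± 0.08, adjusted p = 0.62). AT3G54980, beside SMZ, was at -0.16 ± 0.14 SE, and AT4G35905, beside FD, was at -0.29 ± 0.17 SE, opposite in sign to FD (limma adjusted p = 0.56 and 0.39). The neighbour that passed was AT5G62210, which lies 5 genes from AGL42. It had signals of 1658 and 1775 in vip3, against 596 and 636.4 in WT (log2 difference 1.48 ± 0.08 SE, limma adjusted p = 0.00014). The adjusted p was 0.17 with a constant prior variance and 0.053 with signals below 20 set to 20, and it passed when any 1 array was left out. The genes between it and AGL42 varied, and none of them passed. TRM25, adjacent to AGL42, had a log2 difference of 0.45 ± 0.33 SE (limma adjusted p = 0.47). CXE20, a carboxylesterase gene, had signals of 30.2 and 40.4 in vip3 and of 15.2 and 8.5 in WT (adjusted p = 0.23). PRH75 was lower in vip3 (-0.24 ± 0.07, adjusted p = 0.077). AT5G62200 had means of 698 ± 8.84 in vip3 and 679 ± 15.1 in WT (adjusted p = 0.84).

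**Figure D5:**
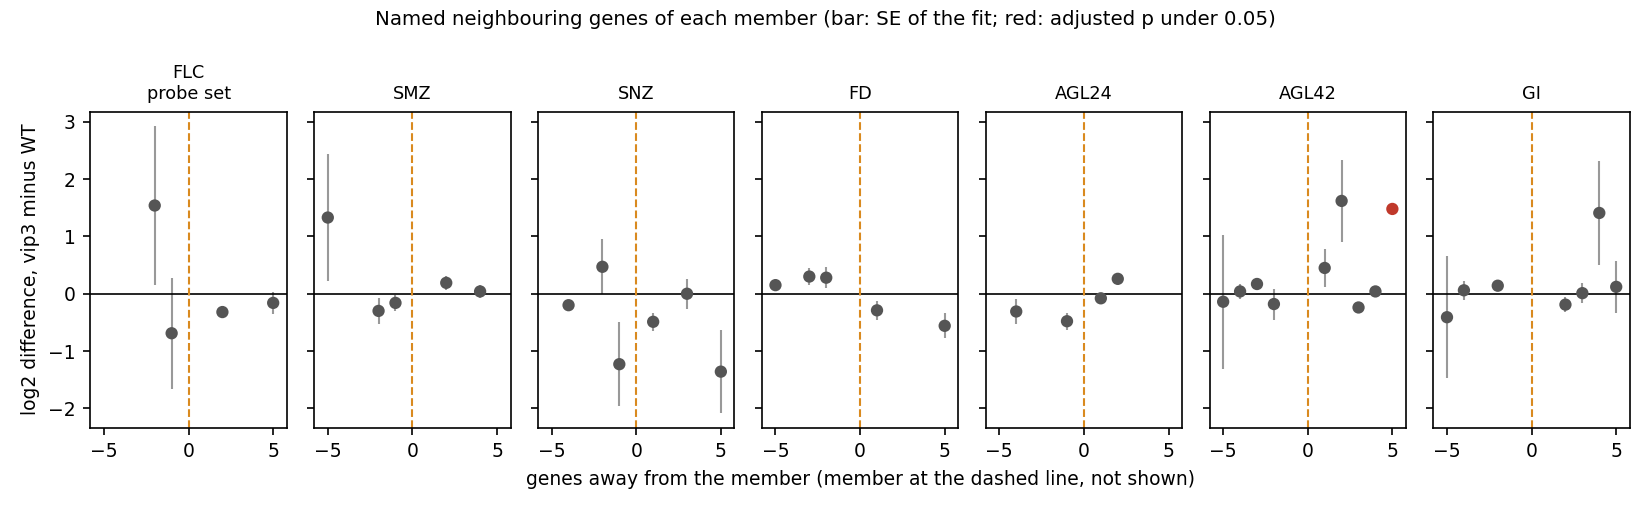
Log2 difference, vip3 minus WT, with its SE, for the named neighbours within 5 genes of each member, by gene order along the chromosome. Of 40 neighbours only AT5G62210, 5 genes from AGL42 and drawn in red, had an adjusted p under 0.05.

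Genes with the most similar course over the 4 arrays were listed for 3 members, among probe sets with 1 gene symbol and at least a 2-fold difference. With 4 arrays in 2 groups such likeness is easily reached: 324 probe sets correlated with the FLC probe set at r above 0.99, and 58 of these differed at least 2-fold. The closest to the FLC probe set were AT3G22240 (r = 0.9999), AT4G34880, AT4G11400, AT3G21680 and AT3G23550 (r = 0.9981). AT3G22240 had signals of 5273.9 and 7244.8 in vip3 and of 13200.1 and 13078.9 in WT, a ratio of 0.476, so that it shared the shape of the course but not its size. AT4G34880, AT4G11400 and AT3G21680 stayed under 30 on all arrays. Closest to SMZ were AT5G59490, AT3G05730 and AT5G66980 (r between 0.9998 and 0.9999), of which AT3G05730 was bright, with signals of 2601.9 and 3039.8 in vip3 and of 6106.6 and 6210.4 in WT. Closest to FD were AT1G44760, AT2G18600 and AT4G27200 (r between 0.9993 and 0.9996). AT1G44760 had signals of 1016.5 and 1117.4 in vip3 and of 404.6 and 405.3 in WT.

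The harvested tissue was checked against lists of markers. Green leaf genes, 4 of 5 measured, summed to 75168.7 and 82662 in vip3 and to 79117.5 and 75427 in WT, and the genotypes overlapped. Leaf genes are read with or without roots in a sample, so these sums could not check the label of aerial tissue. None of the 4 passed, although LHCB4.2 was lower (-0.20 ± 0.09) and LHCB4.1 higher (0.11 ± 0.09) on both vip3 arrays than on both WT arrays. FD, AGL24 and AGL42 are active at the shoot apex, for which 1 of 5 listed markers was measured: the stem cell gene CLV3 had signals of 3.2 and 7.5 in vip3 and of 3 and 2 in WT (limma adjusted p = 0.66). None of 9 floral organ markers was measured by a named probe set, and of 4 floral meristem markers only UFO, at 3.8 and 6.2 in vip3 and 4.5 and 7.5 in WT. The single measured locus of 2 on the anther list, AT5G07230, had signals of 39.6 and 22.6 in vip3 and of 16.3 and 4.9 in WT (adjusted p = 0.29). Of 4 root markers 2 were measured and summed to 2714.4 and 3271 in vip3 and to 4796.3 and 5779.2 in WT, almost all from PYK10 (log2 difference -0.82 ± 0.12 SE, limma adjusted p = 0.0062). The second, EXPA7, a gene of root hair cells, had signals of 27.2 and 42.8 in vip3 and of 57.5 and 40.2 in WT and overlapped (adjusted p = 0.65). PYK10 was bright in tissue labelled aerial, with signals of 2687.2 and 3228.2 in vip3 and of 4738.8 and 5739 in WT. Whether its signal came from roots was not tested. The part that a changed share of apex, floral or root tissue has in the members' values was not tested.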

How the data were processed

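RNA of 2 vip3 and 2 WT pools was hybridised to Affymetrix ATH1 arrays. The deposited values are MAS5 signal intensities, which the authors made with Microarray Suite 5.0; it corrects background and mismatch hybridisation, summarises probes and scales each array. The genome build behind the array's annotation is not named in the sources used here, and detection calls were not used here. Precision was limited by having 2 arrays a genotype.

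After leaving out 64 control probe sets, 22746 were tested. Log2 signals without offset went into a linear model (lmFit, eBayes; limma 3.58.1 in R 4.3.3) for vip3 minus WT, the prior variance following the mean signal, and p-values were adjusted by Benjamini-Hochberg over all probe sets. Calls took an adjusted p under 0.05. The study applied its own thresholds (p under 0.001, 2-fold) to values normalized with GCRMA from the raw array files. Counts at those thresholds here are from MAS5 signals and do not repeat the study's analysis. With 2 arrays against 2 a two-sided permutation of the arrays cannot go below 0.333, so none was run. The code was tested on simulated data whose normal noise had the spread of the fitted trend. That checks the code and not how well the model holds for these signals.

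Probe sets were named from GEO's platform annotation through gene identifiers to the RefSeq table of TAIR10.1: 13513 had 1 symbol, 503 several and 8794 none. RefSeq served for names and gene order only. The members and lists were chosen with earlier results of these data known, and the neighbours after the files had been opened. Named genes were the members, listed genes that passed, up to 3 others per role by mean signal, and the most similar probe sets. Further list genes and neighbours were named after their values were seen. A further planned gene group is not reported here. Alternatives varied the prior variance, offset, floor, normalization, filters, thresholds, replicate block and arrays. Arrays were not paired by replicate number.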

Additional observations from a re-analysis of the deposited data

How the results depend on the processing

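Members near background moved most. With log2 of the signal plus 16 the log2 differences were -6.96 for the FLC probe set, 1.39 for FD and 1.28 for AGL42, and the repressor minus promoter difference was -3.07 (-0.97 without the FLC probe set); with signals below 20 set to 20 these were -7.25, 1.79, 0.96, -3.12 and -0.94. Leaving AGL42 out, chosen after seeing the data, gave -3.63 (-0.79 without the FLC probe set). No member changed sign under any setting run. With 1 array left out, the ranges were -11.09 to -7.35 for the FLC probe set, 1.53 to 4.80 for AGL42 and -1.97 to -0.80 for AGL24. The number of probe sets called, 2229 with all arrays, was 0 with a constant prior variance (3798 at an unadjusted p under 0.05), 36 with signals below 20 set to 20, 354 at the thresholds of the methods (p under 0.001, 2-fold), 3397 at an adjusted p under 0.1, and 442 to 1332 with 1 array left out. The share of calls higher in vip3, 48.3% with all arrays, was 36.7% and 39.8% without vip3 replicate 1 and 2, and 51.6% and 55% without WT replicate 1 and 2. The flowering list gave 1 call without the 40% dimmest probe sets and 1 at an adjusted p under 0.1, GID1B both times. AT5G62210 had adjusted p-values of 0.17 with a constant prior variance and 0.053 with the floor. Genes that were never called changed sign: AGL71 was at 0.01 with log2 of the signal plus 16 and -0.81 to 0.62 with 1 array left out, and with 1 array left out AGL19 was at -0.06 to 0.35, UFO at -0.63 to 0.11 and GID1A at -0.17 to 0.01. The replicate block gave 2339 probe sets and changed no call of a member, of the 13 list genes or of AT5G62210. Of the other genes examined, AT5G10160 passed with it (adjusted p = 0.035), and AT5G59490 and AT4G27200, listed for their course, did not (0.059 and 0.075, against 0.041 and 0.05 without it). Deviations of same-numbered arrays correlated at -0.0438 and share only a number. The cause of these changes was not tested.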
